A study of Mus musculus with 12 samples.

Results

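Striatal neuropeptides and their receptors were followed here as 10 genes of 19248 measured, each read from its 1 probe set with a single gene symbol on a whole-transcript array. They were 5 peptide precursors (Penk, Pdyn, Tac1, Tac2 and Cartpt), 3 opioid receptors (Oprd1, Oprk1 and Oprm1) and 2 tachykinin receptors (Tacr1 and Tacr3). All 10 were found and kept, with no filter on low values. The striatum was taken at 8 weeks from 12 mice in 4 groups of 3. These carried a Huntington's disease (HD) transgene and p62-/- (HD_p62KO), the transgene and p62+/+ (HD_p62WT), no transgene and p62-/- (NT_p62KO), or no transgene and p62+/+ (NT_p62WT). The product of Sqstm1, p62, hands ubiquitinated cargo to autophagosomes. The sources used here do not give the transgene's promoter, its repeat length, the strain or the sex.

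The striatum is built mainly from inhibitory projection neurons of 2 kinds. Those of the indirect pathway carry the dopamine D2 receptor and make enkephalin, and those of the direct pathway carry the D1 receptor and make dynorphin and substance P. Enkephalins act mostly on delta and mu opioid receptors, dynorphins on kappa receptors, substance P on the NK1 receptor and neurokinin B on the NK3 receptor. All of these receptors couple to G proteins, the opioid ones to inhibitory G proteins that lower cyclic AMP. Loss of enkephalin from the striatum is a long-known early change in HD, and dynorphin and substance P are also reported to change.

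All values are the authors' log2 values made with RMA, a method that corrects background, normalizes between arrays and summarizes probes, so it removes any shift that most genes have in common. Array medians lay between 7.79 and 7.83, and the SD of all values on an array between 1.58 and 1.73. The medians of all HD arrays (7.8097 to 7.8336) were slightly above those of all non-transgenic arrays (7.7926 to 7.8096). Sqstm1 lay between 8.92 and 9.13 in HD_p62KO mice, against 11.26 to 11.75 in HD_p62WT mice, and between 8.44 and 8.52 in NT_p62KO mice, against 11.19 to 11.35 in NT_p62WT mice, so it was low in each mouse labelled as a knockout. Drd1, Drd2 and Ppp1r1b (DARPP-32), which define projection neurons, lay at 9.95 or higher in all 12 mice, where 9.84 was the 90th percentile of all genes. Markers of choroid plexus, which lies beside the striatum, varied between mice, with list means of 7.06 to 9.08 in HD_p62KO, 7.06 to 8.30 in HD_p62WT, 8.11 to 8.41 in NT_p62KO and 7.10 to 7.45 in NT_p62WT. In such bulk tissue, fewer cells of a type and less RNA per cell cannot be told apart.

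The promoters of Tac1, which was higher in HD mice, and of Pdyn and Oprd1, which were lower, are shown because their HD differences ran in opposite directions. RefSeq windows (GRCm38.p6) were matched for 8 of the 10 genes, and none was matched for Penk and Oprk1. Each sequence is the 250 bases before a transcription start, 5′ to 3′ on the gene's strand. Capitals mark TGACG, the core of the cyclic AMP response element, and GGGCGG, the GC box, found on either strand.
Tac1 (chr6:7554811-7555060, plus strand): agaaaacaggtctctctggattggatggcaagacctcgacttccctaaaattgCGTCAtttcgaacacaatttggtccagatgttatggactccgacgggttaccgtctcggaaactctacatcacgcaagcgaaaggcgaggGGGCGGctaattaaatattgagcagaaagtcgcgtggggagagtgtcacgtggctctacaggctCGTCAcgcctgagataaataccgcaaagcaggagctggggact
Pdyn (chr2:129699939-129700188, minus strand, the more upstream of 2 starts): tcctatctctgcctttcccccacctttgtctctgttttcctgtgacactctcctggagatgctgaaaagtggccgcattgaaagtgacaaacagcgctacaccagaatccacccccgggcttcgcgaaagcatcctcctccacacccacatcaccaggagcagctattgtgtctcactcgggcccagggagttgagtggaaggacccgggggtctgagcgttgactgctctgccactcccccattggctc
Oprd1 (chr4:132144487-132144736, minus strand): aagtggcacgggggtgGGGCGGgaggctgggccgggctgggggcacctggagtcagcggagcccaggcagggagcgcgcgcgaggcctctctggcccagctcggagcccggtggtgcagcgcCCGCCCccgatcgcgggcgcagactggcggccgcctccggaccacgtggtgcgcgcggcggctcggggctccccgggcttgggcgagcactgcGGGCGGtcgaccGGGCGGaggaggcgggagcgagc
The Tac1 window held TGACG at 197 and 43 bases and a GC box at 107 bases before the start. The Oprd1 window held 4 GC boxes, at 234, 128, 35 and 23 bases before the start, and neither motif was found in the 2 Pdyn windows. Among the other members, TGACG was found for Cartpt and Tacr1, which were also lower in HD mice, and for Tacr3, whose mean HD effect did not pass. The Cartpt window held the full element TGACGTCA, in which its TGACG matches overlap, and a GC box at 210 bases before the start. Of 32851 windows of this length, 17.8% held TGACG, 32.7% GGGCGG and 1.55% TGACGTCA. These matches describe the letters of the windows only.

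Across the mice, 7 of the 10 genes were lower and 1 was higher in HD than in non-transgenic striatum. The largest decreases were those of Oprk1, Oprd1 and Penk, by 0.73, 0.66 and 0.60 on the log2 scale, and Tac1 rose by 0.28. These are mean HD effects, the average of the HD difference without p62 and with p62, tested with limma over all genes at a Benjamini-Hochberg adjusted p below 0.05. At that threshold 35% of all genes passed, 15% lower and 19.9% higher. The median of the 10 genes was -0.44 and that of all genes -0.022. In 5 of the 10 genes (Penk, Pdyn, Oprd1, Oprk1 and Tacr1) the 6 HD mice all lay below the 6 non-transgenic mice, as they did in 5.69% of all genes. In 0 of the 10 they all lay above, as they did in 10.5% of all genes.

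**Figure D1:**
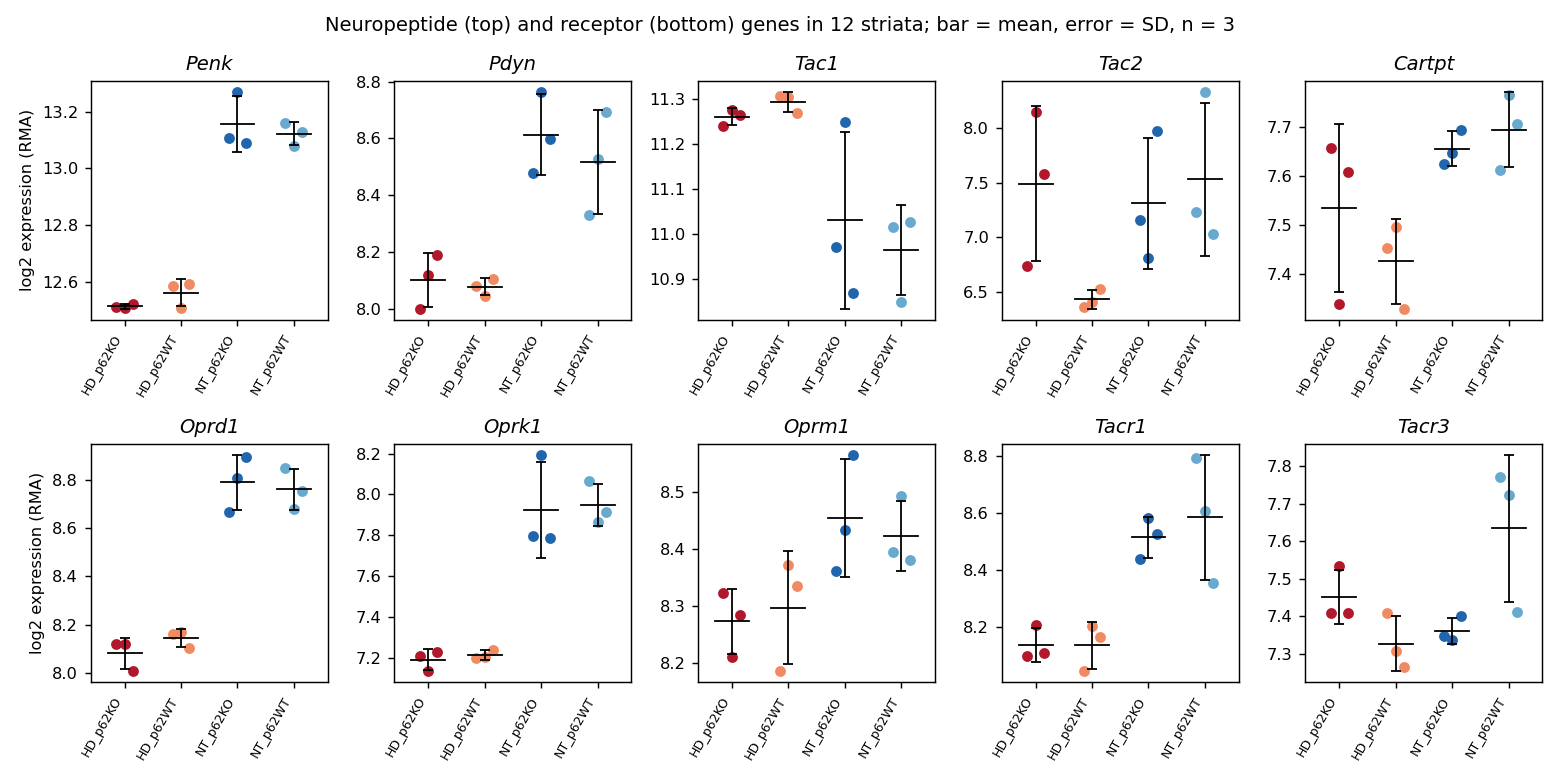
Log2 expression (RMA) of the 10 genes in 12 mice, 1 panel per gene with its own axis, peptide precursors above and receptors below. Points are mice, horizontal bars group means and error bars SD (n = 3). For Penk, Pdyn, Oprd1, Oprk1 and Tacr1 every HD mouse lies below every non-transgenic mouse, and Tac2 has the widest spread over the 12 mice.

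Penk encodes the precursor of the enkephalins. Its level was 12.51, 12.51 and 12.52 in HD_p62KO mice, against 13.11, 13.27 and 13.09 in NT_p62KO mice. With normal p62 it was 12.59, 12.51 and 12.59 in HD mice, against 13.16, 13.08 and 13.13 in non-transgenic mice. Every HD mouse was thus lower than every non-transgenic mouse and the HD mice lay close together. The mean HD effect was -0.60 ± 0.047 (SE, a 1.52-fold decrease; adjusted p = 1.10e-05). It was -0.64 ± 0.066 without p62 (adjusted p = 0.00025) and -0.56 ± 0.066 with p62 (adjusted p = 0.000874). Only 4 of the 19248 genes had a brighter probe set, and whether the signal was compressed at that brightness was not tested.

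Pdyn encodes the precursor of the dynorphins. It measured 8.00, 8.12 and 8.19 in HD_p62KO mice, against 8.48, 8.76 and 8.60 in NT_p62KO mice. With normal p62 the values were 8.08, 8.04 and 8.10 in HD mice, against 8.33, 8.53 and 8.69 in non-transgenic mice. Again no HD mouse reached the lowest non-transgenic one. Pdyn fell by 0.48 as a mean HD effect (SE 0.070, 1.39-fold; adjusted p = 0.000692), by 0.51 without p62 (SE 0.099; adjusted p = 0.00693) and by 0.44 with p62 (SE 0.099; adjusted p = 0.0246). The call with p62 was lost when HD_p62WT replicate 1 or 3 (adjusted p = 0.0774 and 0.0743) or NT_p62WT replicate 2 or 3 (0.0584 and 0.0936) was left out.

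Tac1, the precursor of substance P and neurokinin A, went the other way although it too is a gene of direct-pathway neurons. It measured 11.24, 11.28 and 11.27 in HD_p62KO mice, against 10.97, 11.25 and 10.87 in NT_p62KO mice. With normal p62 it measured 11.31, 11.31 and 11.27 in HD mice, against 11.02, 10.85 and 11.03 in non-transgenic mice. The groups overlapped through NT_p62KO replicate 2, which lay just above 1 HD mouse. That same mouse had the highest Penk, Pdyn and Oprk1 of all 12. Tac1 rose by 0.28 ± 0.064 as a mean HD effect (1.21-fold; adjusted p = 0.00669), and with the SD of each array as a covariate the difference was 0.21 (adjusted p = 0.103). With p62 Tac1 differed by 0.33 ± 0.091 (adjusted p = 0.0492), a call that was lost when any 1 of 10 of the 12 mice was left out, all but NT_p62KO replicates 2 and 3 (adjusted p = 0.0579 to 0.142), and with equal array medians (0.0623). Without p62 the difference of 0.23 ± 0.091 missed the threshold (adjusted p = 0.0853) and passed without NT_p62KO replicate 2 (0.34; adjusted p = 0.014).

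Set against each other inside each mouse, Penk and Pdyn both fell relative to Tac1, and Penk was not told apart from Pdyn. The log2 difference Penk minus Tac1 ran from 1.20 to 1.33 in the 6 HD mice, against 2.02 to 2.23 in the 6 non-transgenic mice, a shift of -0.88 ± 0.039 (SE). Pdyn minus Tac1 ran from -3.26 to -3.08 in HD mice, against -2.69 to -2.27 in non-transgenic mice, a shift of -0.76 ± 0.075. Neither difference overlapped between HD and non-transgenic mice. Exact two-sided permutation of HD status within p62 genotype (400 assignments) gave p = 0.005 for both, the smallest it can give (adjusted over the 3 pairs, 0.0075). Penk minus Pdyn ran from 4.34 to 4.51 in HD mice, against 4.43 to 4.83 in non-transgenic mice. Its shift of -0.12 ± 0.068 missed the threshold (exact permutation p = 0.08, adjusted p = 0.08), while without NT_p62WT replicate 3 it was -0.17 (adjusted p = 0.015). These shifts are unequal changes within an array and do not compare the abundance of the transcripts.

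**Figure D2:**
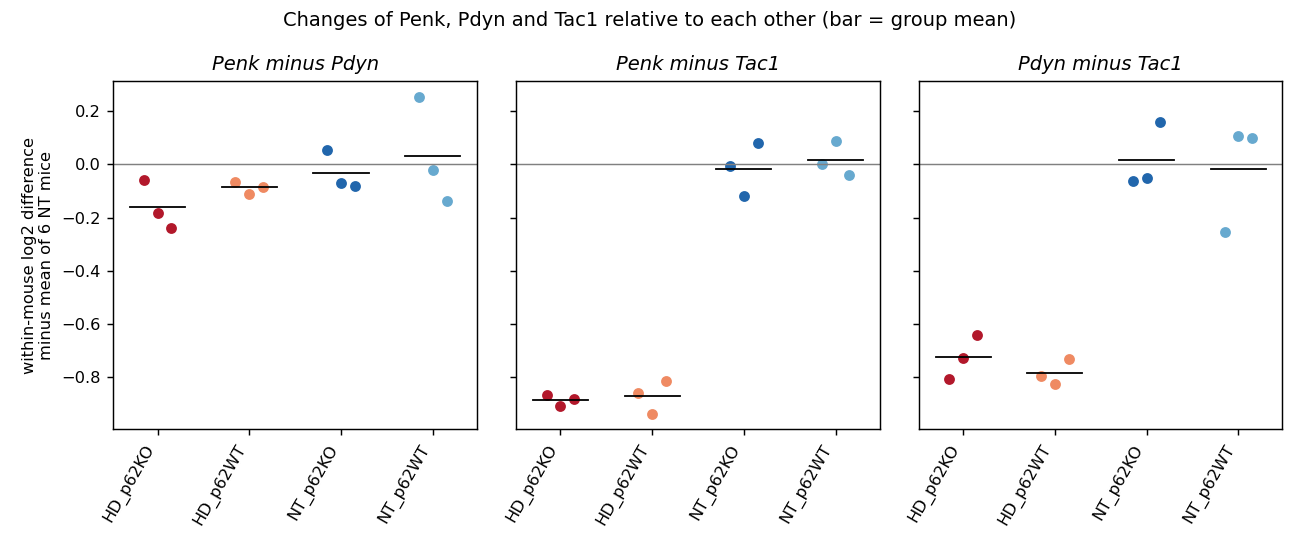
Within-mouse log2 differences between pairs of precursors, each minus its mean over the 6 non-transgenic mice, by group; points are mice and bars group means. Penk minus Tac1 and Pdyn minus Tac1 are separated between HD and non-transgenic mice, and Penk minus Pdyn overlaps.

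The 2 remaining precursors moved less firmly. Cartpt, the precursor of the CART peptide, measured 7.66, 7.34 and 7.61 in HD_p62KO mice, against 7.63, 7.65 and 7.69 in NT_p62KO mice. With normal p62 it measured 7.45, 7.50 and 7.33 in HD mice, against 7.61, 7.77 and 7.71 in non-transgenic mice. The groups were apart with p62 and overlapped without it. Its mean HD effect of -0.20 ± 0.062 passed (adjusted p = 0.0298), and was lost without any 1 of 6 mice (HD_p62KO replicate 2, HD_p62WT replicates 1 and 3, NT_p62KO replicate 3, NT_p62WT replicates 2 and 3; adjusted p = 0.0516 to 0.0763) and with array SD as a covariate (-0.12; adjusted p = 0.323). Markers of the ventral striatum, where Cartpt is high, had list means over 5 genes of 8.29 to 8.77 in HD_p62KO and 8.18 to 8.29 in HD_p62WT mice, against 8.27 to 8.64 in NT_p62KO and 8.42 to 8.87 in NT_p62WT mice, and their part in the result was not tested. The HD difference of Cartpt was -0.12 ± 0.088 without p62 (adjusted p = 0.318) and -0.27 ± 0.088 with p62 (adjusted p = 0.0823), and the second passed without HD_p62KO replicate 2 (adjusted p = 0.0469).

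Tac2, which encodes neurokinin B in mice, had a wider spread than any other member in 3 of the 4 groups, with SDs of 0.71 in HD_p62KO, 0.60 in NT_p62KO and 0.70 in NT_p62WT mice, against 0.086 in HD_p62WT mice. It measured 6.74, 8.15 and 7.58 in HD_p62KO mice, 6.36, 6.40 and 6.53 in HD_p62WT mice, 7.16, 6.81 and 7.98 in NT_p62KO mice and 7.23, 8.33 and 7.03 in NT_p62WT mice. The 3 HD_p62WT mice lay below all others and below 6.73, the 25th percentile of all genes. The HD difference with p62 was -1.10 ± 0.39 (SE) and did not pass (adjusted p = 0.103), though it did with array weights (-0.98; adjusted p = 0.0353). Without p62 it was 0.18 ± 0.39 (adjusted p = 0.753). Markers of thalamus, septum and pallidum, which border the striatum, had list means over 11 genes of 7.99 to 8.13 in HD_p62KO, 7.62 to 7.84 in HD_p62WT, 7.59 to 8.27 in NT_p62KO and 7.68 to 8.42 in NT_p62WT mice. Both Tac2 and this list were highest in NT_p62WT replicate 2, while NT_p62KO replicate 1, with the next highest list mean of 8.27, had a Tac2 of 7.16. With this list mean as a covariate, added after the data had been seen, the Tac2 difference with p62 was -0.82 (adjusted p = 0.177), and with choroid plexus markers as the covariate it was -1.37 (adjusted p = 0.0532).

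**Figure D3:**
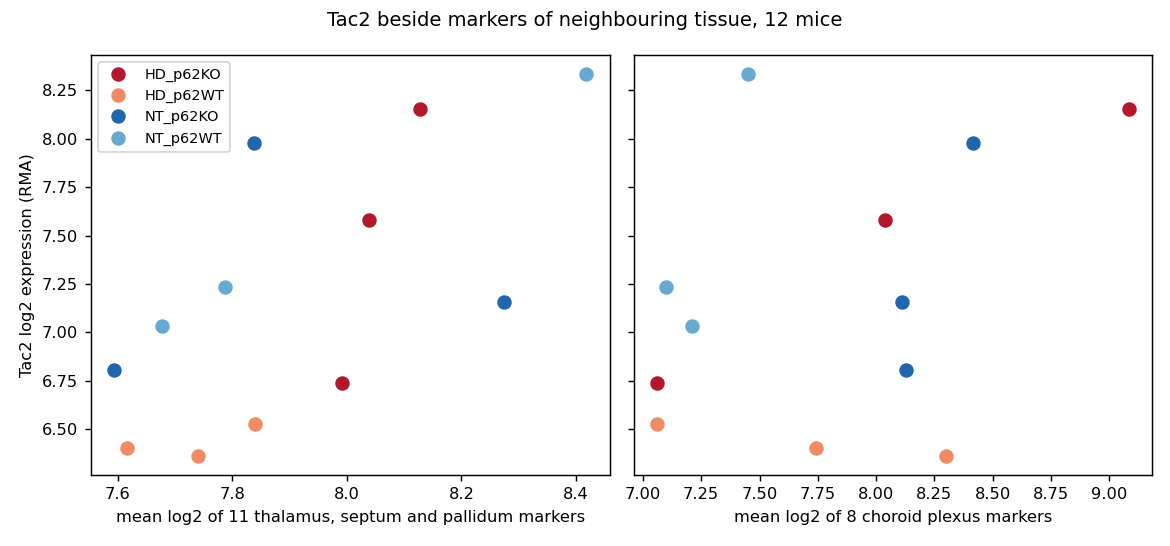
Tac2 log2 expression (vertical) against the mean log2 value of 11 thalamus, septum and pallidum markers (left) and of 8 choroid plexus markers (right) in 12 mice, coloured by group. HD_p62WT mice have the lowest Tac2, and NT_p62WT replicate 2 is highest in Tac2 and in the left marker mean.

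Of the opioid receptors, delta and kappa were lower in every HD mouse than in every non-transgenic mouse, and mu differed less. Oprd1, the delta receptor, measured 8.12, 8.12 and 8.01 in HD_p62KO mice, against 8.67, 8.81 and 8.89 in NT_p62KO mice. With normal p62 it measured 8.16, 8.17 and 8.10 in HD mice, against 8.85, 8.68 and 8.75 in non-transgenic mice. The gap between the highest HD and the lowest non-transgenic mouse was wider than the spread within any group. The mean HD effect of Oprd1 was -0.66 ± 0.053 (a 1.58-fold decrease; adjusted p = 1.18e-05). It was -0.71 ± 0.076 without p62 (adjusted p = 0.000291) and -0.61 ± 0.076 with p62 (adjusted p = 0.00102).

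Oprk1, the kappa receptor, had the largest decrease among the members that passed. It measured 7.21, 7.13 and 7.23 in HD_p62KO mice, against 7.79, 8.19 and 7.78 in NT_p62KO mice. With normal p62 it measured 7.20, 7.21 and 7.24 in HD mice, against 8.07, 7.87 and 7.91 in non-transgenic mice. The HD mice lay close to each other and below all non-transgenic mice. Of all genes 56% had a brighter probe set than Oprk1, and whether low signal shaped its values was not tested. The mean HD effect was -0.73 ± 0.072 (1.66-fold; adjusted p = 4.95e-05), with -0.73 ± 0.10 both without p62 (adjusted p = 0.00147) and with p62 (adjusted p = 0.00219). The 95% intervals of the mean HD effect overlapped for Oprk1 (-0.89 to -0.58), Oprd1 (-0.78 to -0.54) and Penk (-0.70 to -0.50), so their order was not settled.

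Oprm1, the mu receptor, which marks the striosome compartment, had the smallest decrease of the members that passed. It measured 8.32, 8.21 and 8.29 in HD_p62KO mice, against 8.36, 8.43 and 8.57 in NT_p62KO mice, and with normal p62 8.19, 8.37 and 8.34 in HD mice, against 8.39, 8.49 and 8.38 in non-transgenic mice. The ranges of all HD and all non-transgenic mice met at 8.36 to 8.37. The mean HD effect of -0.15 ± 0.054 passed narrowly (adjusted p = 0.0454) and was lost when any 1 of 9 mice was left out (adjusted p = 0.058 to 0.113), all but HD_p62KO replicate 1, HD_p62WT replicate 2 and NT_p62KO replicate 1, and with array SD as a covariate (-0.07; adjusted p = 0.462). Of 7 striosome markers 4 fell and 0 rose as a mean HD effect. Of 5 markers of the matrix compartment 2 fell and 1 rose. Over all genes 15% fell and 19.9% rose. The part of these markers in the Oprm1 difference was not tested. The Oprm1 difference was -0.18 ± 0.077 without p62 (adjusted p = 0.104) and -0.13 ± 0.077 with p62 (adjusted p = 0.329).

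Tacr1, the NK1 receptor for substance P, fell while the precursor of its ligand rose. In HD_p62KO mice it measured 8.10, 8.21 and 8.11, against 8.44, 8.58 and 8.52 in NT_p62KO mice. With normal p62 it measured 8.04, 8.20 and 8.16 in HD mice, against 8.79, 8.61 and 8.35 in non-transgenic mice. All HD mice were below all non-transgenic mice. Tacr1 fell by 0.41 as a mean HD effect (SE 0.070, 1.33-fold; adjusted p = 0.00147), by 0.38 without p62 (SE 0.10; adjusted p = 0.0219) and by 0.45 with p62 (SE 0.10; adjusted p = 0.0231). The difference without p62 was lost without HD_p62KO or NT_p62KO replicate 2 or 3 (adjusted p = 0.0513 to 0.07) and with array SD as a covariate (-0.37; adjusted p = 0.136), and that with p62 without HD_p62WT replicate 1 or 3 or NT_p62WT replicate 1 or 2 (0.0575 to 0.094). In the striatum NK1 is found mainly on cholinergic and other interneurons. The 10 interneuron markers averaged 7.54 to 7.79 in HD_p62KO and 7.41 to 7.52 in HD_p62WT mice, against 7.82 to 7.97 in NT_p62KO and 7.85 to 8.26 in NT_p62WT mice. Of these 10, 7 fell and 0 rose as a mean HD effect, where 15% of all genes fell and 19.9% rose. The part of these markers in the Tacr1 difference was not tested.

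Tacr3, the NK3 receptor for neurokinin B, showed HD differences of opposite sign in the p62 genotypes. It measured 7.41, 7.53 and 7.41 in HD_p62KO mice, against 7.35, 7.34 and 7.40 in NT_p62KO mice, and with normal p62 7.41, 7.31 and 7.26 in HD mice, against 7.77, 7.72 and 7.41 in non-transgenic mice. Without p62 the lowest HD mouse lay just above the highest non-transgenic one (7.4078 against 7.4012). With p62 the highest HD mouse lay just below the lowest non-transgenic one (7.4077 against 7.4107). The HD difference was 0.089 ± 0.091 without p62 (adjusted p = 0.479) and -0.31 ± 0.091 with p62 (adjusted p = 0.0621). Without NT_p62WT replicate 3 the HD difference with p62 was -0.42 (adjusted p = 0.0213) and the mean HD effect -0.17 (adjusted p = 0.0362), which was otherwise -0.11 ± 0.065 (adjusted p = 0.199). The limma HD difference with p62 also passed with array weights (-0.32; adjusted p = 0.0219) and with genes below the 25th percentile left out (adjusted p = 0.0421).

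Counted by p62 genotype, 5 of the 10 genes fell and 0 rose in HD mice without p62, where 21.7% of all genes passed, 8.34% lower and 13.3% higher. In HD mice with p62, 5 fell and 1 rose, where 7.1% of all genes passed, 3.24% lower and 3.85% higher. Penk, Pdyn, Oprd1, Oprk1 and Tacr1 were the 5 in both. With p62 the count of 6 dropped to 3 (Penk, Oprd1 and Oprk1) without HD_p62WT replicate 1 or 3 or NT_p62WT replicate 2. The median difference of the 10 genes was -0.28 without p62 and -0.44 with p62, against -0.0195 and -0.0091 over all genes.

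Loss of p62 changed none of the 10 genes by the test. In HD mice 0 of 10 passed (limma; smallest adjusted p = 1.00, 1 at an unadjusted p below 0.05, against 555 of all genes), and in non-transgenic mice likewise 0 of 10 (smallest adjusted p = 1.00, 1 unadjusted, against 639 of all genes). In each comparison 0.0052% of genes passed, which was Sqstm1 alone. The member with an unadjusted p below 0.05 in HD mice was Tac2 (1.06 ± 0.39) and in non-transgenic mice Tacr3 (-0.27 ± 0.091). For Penk, p62 knockout minus normal p62 was -0.048 in HD mice (95% interval -0.19 to 0.096) and 0.034 in non-transgenic mice (-0.11 to 0.18). For Pdyn, in HD mice and then in non-transgenic mice, it was 0.026 (-0.19 to 0.24) and 0.097 (-0.12 to 0.31), and for Tac1 -0.033 (-0.23 to 0.16) and 0.066 (-0.13 to 0.26). In the same order Oprd1 had -0.063 (-0.23 to 0.10) and 0.029 (-0.14 to 0.19), and Oprk1 had -0.023 (-0.24 to 0.20) and -0.024 (-0.25 to 0.20). In HD mice these intervals end short of the size of the mean HD effect of the same gene for Penk, Pdyn, Tac1, Oprd1 and Oprk1. So does that of Tacr1 (-0.22 to 0.22, against -0.41). The intervals in HD mice reach that size for Oprm1 (-0.19 to 0.14, against -0.15) and Cartpt (-0.082 to 0.30, against -0.20). They also reach it for Tac2 (0.21 to 1.91, against -0.46) and Tacr3 (-0.075 to 0.32, against -0.11), whose mean HD effects did not pass.

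The HD effect itself was not shown to differ with p62 for any member. The difference of the HD effects passed for 0 of 10 genes and for 0% of all genes (limma; smallest adjusted p among the members 0.991), with 2 members, Tac2 and Tacr3, and 665 of all genes at an unadjusted p below 0.05. It was -0.082 for Penk (95% interval -0.28 to 0.12), -0.071 for Pdyn (-0.38 to 0.23) and -0.099 for Tac1 (-0.38 to 0.18). For Tacr3 it was 0.40 (0.12 to 0.68) and for Tac2 1.28 (0.075 to 2.48).

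**Figure D4:**
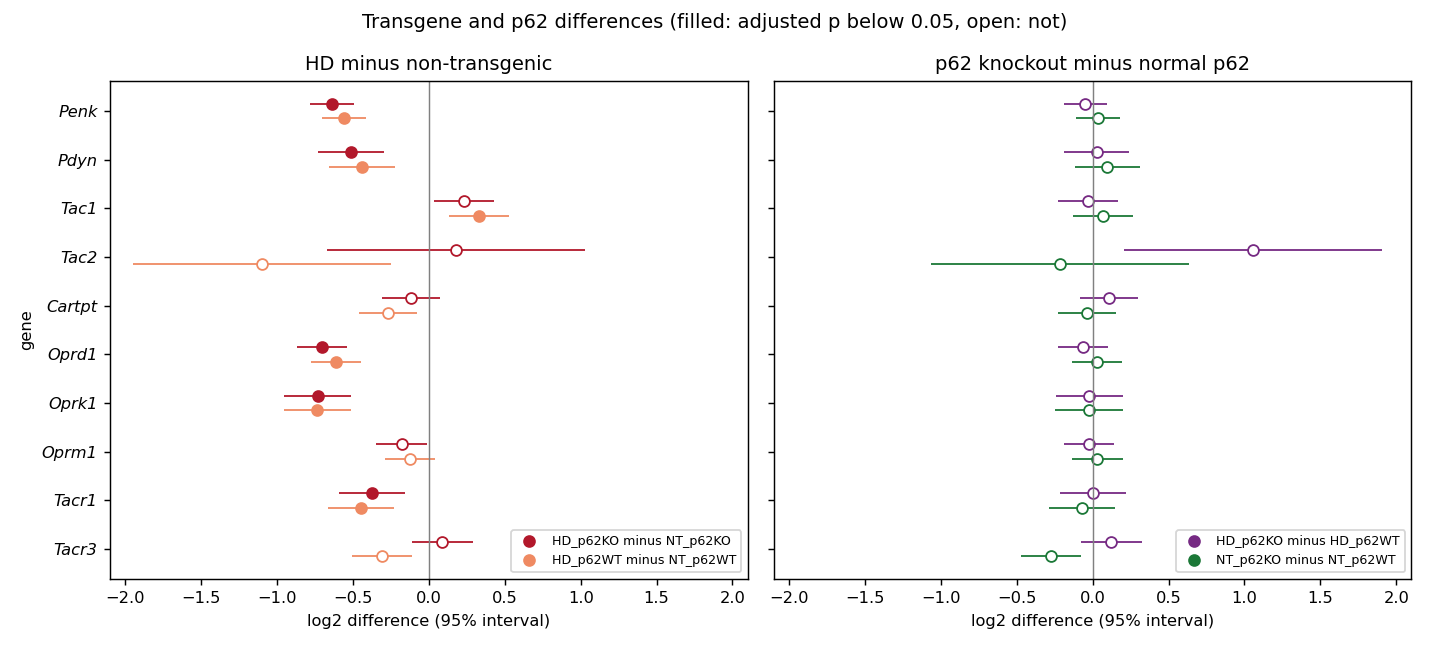
Log2 differences of the 10 genes with 95% intervals, HD minus non-transgenic on the left and p62 knockout minus normal p62 on the right; filled points have an adjusted p below 0.05. On the left Penk, Pdyn, Oprd1, Oprk1 and Tacr1 are filled and negative in both p62 genotypes, and on the right no point is filled.

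Other genes of peptide signalling give the setting of these differences, by their mean HD effect. By the same test 15% of all genes fell and 19.9% rose. Among 28 other peptide precursors measured, 12 fell and 0 rose (median -0.20). They included Vgf (-0.36 ± 0.052; adjusted p = 0.000597), a secreted neuronal granule protein, Sst, encoding somatostatin (-0.38 ± 0.057), and Trh, encoding thyrotropin-releasing hormone (-0.44 ± 0.075), while Scg2 did not pass (0.075 ± 0.10). Of 27 other neuropeptide receptors 9 fell and 2 rose (median -0.17), among them the cholecystokinin receptor Cckbr (-0.70 ± 0.14; adjusted p = 0.00295). Of the 6 other opioid and tachykinin genes, the nociceptin receptor Oprl1 rose (0.26 ± 0.063; adjusted p = 0.00892) and Pomc (-0.27 ± 0.075) and Tac4 (-0.29 ± 0.091) fell. Ogfr, the brightest that did not pass, differed by 0.12 ± 0.052.

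Among genes that process and degrade peptides, 5 of 15 and 4 of 12 passed, where 35% of all genes did. Among 15 genes of peptide processing and granules 3 fell, including Chgb (-0.32 ± 0.050), which encodes a chromogranin, and 2 rose, Qpct (0.44 ± 0.084) and the cathepsin Ctsl (0.27 ± 0.057). Cpe, a carboxypeptidase that trims peptide precursors, differed by 0.042 ± 0.049. Of 12 peptidases, Ece2 (0.76 ± 0.083; adjusted p = 0.000105) and Npepps (0.17 ± 0.053) rose and 2 fell, with Dpp4 at -0.89 ± 0.18. The median difference was 0.099 for the processing genes and 0.048 for the peptidases. Downstream of opioid receptors, 10 of 25 signalling genes fell and 4 rose (median -0.079), with Adcy5, the striatal adenylyl cyclase, at -0.81 ± 0.055, Rgs9 at -0.75 ± 0.058 and Rgs14 at -0.64 ± 0.049, and the G protein subunit Gnao1 at -0.097 ± 0.047 (adjusted p = 0.126). Adcy5, Rgs9 and Ppp1r1b are in this list and are also counted below among the markers shared by both kinds of projection neuron.

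**Figure D5:**
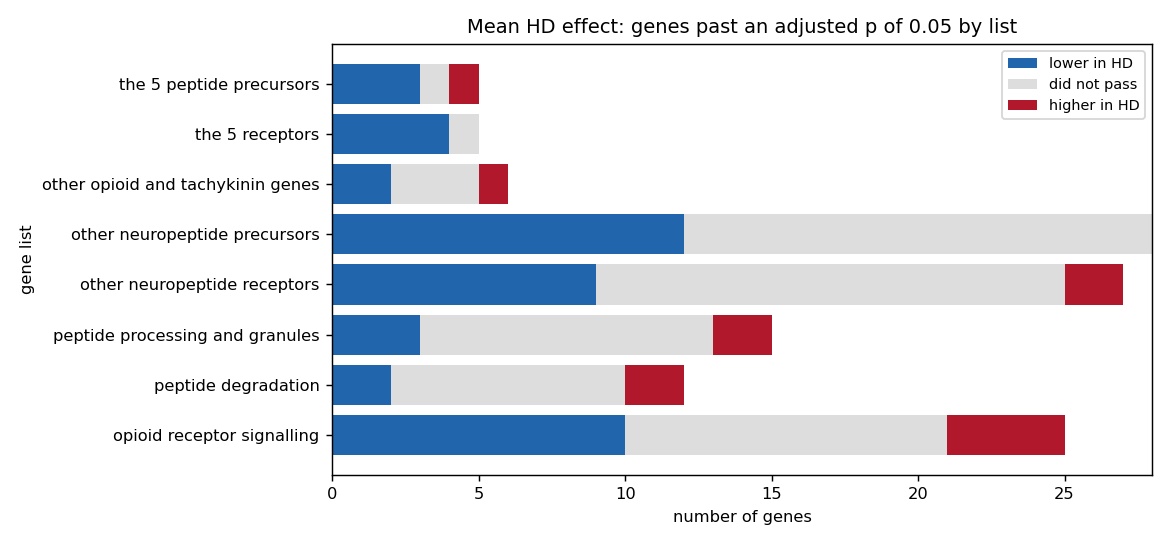
Number of genes per list that were lower, higher or did not pass as a mean HD effect (adjusted p below 0.05). Of the 5 precursors 3 were lower and 1 higher, of the 5 receptors 4 were lower, and of 28 other precursors 12 were lower and 0 higher. Over all genes 15% were lower and 19.9% higher.

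Markers shared by both kinds of projection neuron were mostly lower. Those of the direct pathway were mixed, and of those of the indirect pathway only Drd2 passed. As a mean HD effect, 15% of all genes fell and 19.9% rose. Of 9 measured shared markers 8 fell and 0 rose, with list means of 10.74 to 10.84 in HD_p62KO and 10.88 to 10.94 in HD_p62WT mice, against 11.31 to 11.50 in NT_p62KO and 11.27 to 11.44 in NT_p62WT mice. Drd2, of the indirect pathway, fell by 0.59 (SE 0.058; adjusted p = 4.81e-05), beside 0.60 for Penk. Drd1, of the direct pathway, fell by 0.49 (SE 0.051; adjusted p = 8.04e-05), beside 0.48 for Pdyn. The direct-pathway marker Chrm4, a muscarinic receptor, fell by 0.79 (SE 0.053; adjusted p = 5.06e-06). Of 7 direct-pathway markers 3 fell and 3 rose (median 0.14), Eya1 among those that rose (0.59 ± 0.075). Of 7 listed indirect-pathway markers only 4 were measured, and of these 1, Drd2, fell, 0 rose and 3 did not pass (median -0.077). Of 7 oligodendrocyte markers 3 fell, of 8 astrocyte markers 2 fell and 1 rose, of 7 microglial markers 1 rose, and of 10 cortical excitatory markers 2 fell. The part of these markers in the peptide differences was not tested.

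By Pearson correlation of log2 values over the 12 mice, the genes most like Penk were Cnr1 (r = 0.995), Chrm4 (0.994), Arpp21 (0.994), Adcy5 (0.994) and Dock4 (0.993), after 1 predicted gene was passed over. Those most like Pdyn were Otof (0.978), Gpr26 (0.972), Abi3bp (0.964), Ago4 (0.958) and Ldlrad4 (0.958). For Tac1 they were Uhrf1bp1l (0.969), Med14 (0.949), Pikfyve (0.948), Dhx40 (0.947) and Luc7l (0.946). The mice share HD status, which most of these genes follow. With each group's mean taken away, r was 0.703 to 0.89 for the genes of Penk, 0.717 to 0.909 for those of Pdyn and 0.828 to 0.935 for those of Tac1. The 15 genes were picked as the highest among all genes and are a description of these arrays.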

How the data were processed

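Striatal RNA of 12 mice was hybridized to Affymetrix whole-transcript arrays. The values the authors deposited are on a log2 scale, 1 per probe set. RMA produced them, per the submitters' processing notes, with settings that the sources used here do not give. No scanner files or detection calls were used here, so the number of arrays limits the precision and no gene could be called above background. Groups and replicate numbers came from the titles, which call the samples biological replicates, and 1 sample was read as 1 mouse, so tests rest on differences among those samples.

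The platform annotation paired 19942 of 24055 probe sets with 1 symbol and 1225 with several, and left 2888 unnamed. The brightest probe set per gene left 19248 genes, and each of the 10 members had 1. limma 3.58.1 in R 4.3.3 estimated the 4 group means from all 12 arrays together (8 residual and 4.14 prior degrees of freedom). Benjamini-Hochberg adjustment ran over the 19248 genes of each contrast. Standard errors (SE) are limma's, except those of within-mouse differences, which come from the group variances. Named genes were all members, up to 3 genes per list with the smallest p for the mean HD effect and the brightest that did not pass, and the 5 genes most like Penk, Pdyn and Tac1. The fits were tested on simulated data. The members and lists were chosen with earlier results of these data known. Same-numbered samples did not deviate together (4 of 18 pairs correlated above 0.1), so replicate numbers were not used as pairs. Alternatives covered scaling, filters, probe-set choice, limma options, covariates, thresholds, the replicate block and leaving out each mouse.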

Additional observations from a re-analysis of the deposited data

Results flagged for a closer look

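For Tacr3 the HD mice lay on opposite sides of the non-transgenic mean in the 2 p62 genotypes, though neither HD difference passed the test (limma, adjusted p = 0.479 without p62 and 0.0621 with p62). Each HD_p62KO mouse was above the NT_p62KO mean, by 0.089 on average, and each HD_p62WT mouse was below the NT_p62WT mean, a difference of -0.31 on average. Seen as p62 effects, each HD_p62KO mouse was above the HD_p62WT mean, by 0.12 on average, and each NT_p62KO mouse was below the NT_p62WT mean, a difference of -0.27 on average. The difference of the HD effects was 0.40 ± 0.13 (SE) and did not pass over all genes (limma, adjusted p = 0.991).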

How the results depend on the processing

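The 10 members in 6 comparisons were recomputed under 28 alternatives, 12 of which left out 1 mouse. Of 1660 values, 1589 kept their side of the threshold, 58 lost and 13 gained a call, and 0 called values changed sign (53 values not called in either setting did). Penk, Oprd1 and Oprk1 kept their calls for all 3 HD comparisons under every alternative run. The count of members called for the HD effect with p62 was 6, 3 at an adjusted p below 0.01, and 3 to 6 with 1 mouse left out. It was 7 with genes below the 25th percentile left out, 8 at an adjusted p below 0.1 and 9 with array weights. For the mean HD effect it was 8, 5 with array SD as a covariate, and 6 to 8 with 1 mouse left out. For the HD effect without p62 it was 5, 6 with array weights or at an adjusted p below 0.1, and 4 to 5 with 1 mouse left out. For both p62 effects and the difference of HD effects it was 0 under each alternative. Within a p62 genotype the exact permutation of 3 against 3 cannot go below 0.10. There the shift of Penk minus Tac1 was -0.87 in p62 knockouts and -0.89 with normal p62, and that of Pdyn minus Tac1 -0.74 and -0.77 (adjusted p = 0.15 each). With 1 mouse left out the shifts ran from -0.91 to -0.86 for Penk minus Tac1, from -0.82 to -0.72 for Pdyn minus Tac1 and from -0.17 to -0.068 for Penk minus Pdyn. With a replicate block, Tac1 with p62 (adjusted p = 0.0879) and the mean HD effects of Cartpt (0.0551) and Oprm1 (0.0668) lost their calls, and 2 of the 12 arrays correlated best with an array of their own number. Added after the data had been seen were a fit without the 3 arrays of small spread (HD_p62KO replicate 1, HD_p62WT replicate 2, NT_p62KO replicate 3), under which Tacr1 without p62 was -0.35 (adjusted p = 0.0914), and a covariate of thalamus, septum and pallidum markers. With that covariate Tac1 with p62 (0.27; adjusted p = 0.0834) and the mean HD effect of Oprm1 (0.0562) lost their calls, and Tac1 without p62 gained one (0.27; 0.0456). With the choroid plexus covariate Tac1 with p62 (0.092) and the mean HD effect of Oprm1 (0.0654) lost theirs. With 2 groups alone in the fit Tacr1 with p62 had an adjusted p of 0.0514. Other probe sets of a gene could not be tried, as each member had 1. The cause of these changes was not tested.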
